A study of Mus musculus with 35 samples.

Results

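The LIN28, IGF2BP and HMGA programme was followed in microglial mRNA as 8 genes: Lin28a, Lin28b, Trim71, Igf2bp1, Igf2bp2, Igf2bp3, Hmga1 and Hmga2. They were picked by name as heterochronic genes under let-7 control, out of 55401 gene rows in the table of raw counts. The cells were CD45+ve microglia, immunopanned from the whole brain of wild-type C57BL/6 mice after the meninges and blood clots were removed, and each library came from 1 mouse. The ages were P6 with 4 females and 6 males, P15 with 6 of each sex, and 8 weeks with 6 of each sex, which gave 34 mice, after P6 female 6 was left out as the study did. CD45 marks all leukocytes, so the selection itself does not separate microglia from other CD45-bearing cells.

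LIN28A and LIN28B are RNA-binding proteins that block the maturation of let-7 miRNAs, while mature let-7 in turn represses Lin28 mRNA, so that either side can hold the other low. TRIM71 is an RNA-binding ubiquitin ligase of early embryos and another classical let-7 target. The IGF2BP proteins bind mRNAs and alter their stability, transport and translation, and IGF2BP1 and IGF2BP3 are best known from fetal tissue and tumours. HMGA1 and HMGA2 are small architectural proteins that bind AT-rich DNA. In blood stem and progenitor cells, LIN28B, let-7, IGF2BP3 and HMGA2 are known as parts of a switch between fetal and adult states.

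The let-7 seed, bases 2 to 8 of the mature miRNA, is shown because it defines the family to which these genes respond. Of the mature mouse sequences in RefSeq (GRCm38.p6), 11 names from 13 loci carried the seed of let-7a, and let-7j did not. The capitals mark the seed.
let-7a-5p: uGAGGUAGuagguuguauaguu
let-7d-5p: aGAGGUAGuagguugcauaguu
let-7g-5p: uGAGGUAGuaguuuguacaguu
miR-98-5p: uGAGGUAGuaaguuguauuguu
let-7j: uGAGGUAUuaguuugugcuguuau

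All 8 members held at least 1 match to this seed in the longest annotated 3′ UTR of the gene (GENCODE M21, GRCm38, transcript strand only). A match was an 8mer (CTACCTCA), a 7mer-m8 (CTACCTC without the A) or a 7mer-A1 (TACCTCA without the first C), counted once each. Since the genes were picked as let-7 targets, the matches describe them and test nothing. One match per member is shown, the 8mer nearest to the stop codon or, for Hmga1, its single match, with the match in capitals and 8 bases on either side.
Lin28a (chr4:134005181-134005204, minus strand): ctgttgaaCTACCTCAtttttgcc
Lin28b (chr10:45381014-45381037, minus strand): cgggaagtCTACCTCAtgcaagca
Trim71 (chr9:114512464-114512487, minus strand): cctaagtcCTACCTCAgcttaaat
Igf2bp1 (chr11:95961770-95961793, minus strand): gaagtaaaCTACCTCAaggtgtga
Igf2bp2 (chr16:22059465-22059488, minus strand): aataaaagCTACCTCAggtgtttt
Igf2bp3 (chr6:49086779-49086802, minus strand): ttactcaaCTACCTCAggtattca
Hmga1 (chr17:27563284-27563306, plus strand): ttcacaaaCTACCTCtggacggt
Hmga2 (chr10:120364216-120364239, minus strand): ttcaatttCTACCTCAgcatcagt

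The members differed in how many matches they held. Hmga2 had 7 in 3014 bases, Trim71 6 in 5512 bases, Lin28b 5 in 4445 bases and Igf2bp1 5 in 6337 bases. Lin28a had 2, Igf2bp2 had 2, Igf2bp3 had 1 and Hmga1 had 1. Among all 20988 3′ UTRs searched, 14.8% held a match of any kind and 3.0% held an 8mer. Long 3′ UTRs hold more: among those of 0.8 to 1.25 times the length of the Hmga2 3′ UTR, 28.1% held a match and 0.12% held as many as Hmga2. For Hmga1 the share with a match was 12.9%, and for Igf2bp3 it was 23.5%.

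Library totals over the 35 mice lay between 23316107 and 38965078 counts (median 32742525), so that 3 counts, taken here as the detection floor, correspond to 0.0770 to 0.129 CPM, the usual scale of counts relative to the library total. The 5 microglial markers (Tmem119, P2ry12, Sall1, Cx3cr1 and Csf1r) were present at all ages, and their summed level had medians of 7796, 20450.3 and 22790.3 CPM by age. Other RNA was present as well. By median, the 6 erythroid markers summed to 2127, 5254 and 2051 CPM by age and the 6 astrocyte markers to 612, 2691 and 2270 CPM. The 9 markers of monocytes and other macrophages summed to 976, 860 and 483 CPM. The 9 markers of neural progenitors and immature neurons summed to 661 to 2037 CPM at P6, 124 to 845 CPM at P15 and 89.0 to 206 CPM at 8 weeks, with none of the 9 at 0 in all mice of an age, and the 10 proliferation genes summed to 934 to 1235, 161 to 230 and 33.3 to 57.5 CPM. From P6 to 8 weeks, 4 of 5 microglial markers rose and all 9 progenitor markers and all 10 proliferation genes fell past the 2-fold test defined below. Of all genes tested, 12.4% fell and 11.5% rose past it. In the same comparison, 5 of 7 radial glia markers fell, while neurons had 3 falls among 6 and fibroblasts 3 falls among 6. Astrocytes had 3 rises among 6 and endothelium 2 rises among 6. The oligodendrocyte lineage had 3 falls and 2 rises among 8, and monocytes and macrophages 2 falls and 2 rises among 9. Erythroid cells had 1 fall among 6 and blood progenitors 2 falls and 1 rise among 5. The part of these shifts in the member results was not tested. In bulk libraries, fewer cells of a type and less RNA per cell cannot be told apart.

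Igf2bp3 and Hmga1 were lower at 8 weeks than at P6, while Igf2bp2 was called in none of the age comparisons. Igf2bp3 went from 66.6 ± 13.9 CPM at P6 (SD, n = 10) to 19.2 ± 4.55 at P15 (n = 12) and 0.570 ± 0.295 at 8 weeks (n = 12). Igf2bp1 and Lin28b were already low at P6 and fell near the detection floor, Hmga1 fell but stayed abundant, and Lin28a, Hmga2 and Trim71 were too low for the filter of 0.5 CPM in 5 mice. The test was an edgeR quasi-likelihood fit over 17612 genes, with Benjamini-Hochberg adjusted p-values (FDR), once against no change and once against a 2-fold change (TREAT). Lin28b and Igf2bp1 met the filter through P6, with 10 and 9 mice at 0.5 CPM or more there. At P15 it was 3 and 1 mice and at 8 weeks 1 and 0 mice. A fall from P6 was thus built into their being tested. The counts over the 5 tested members that follow are a description from which nothing is read. From P6 to P15, 4 members fell at an FDR under 0.05, where 31.4% of all genes did, and 3 of them passed the 2-fold test, where 4.85% of genes did. From P6 to 8 weeks, 4 members fell, where 36.6% of genes did, and all 4 passed the 2-fold test, where 12.4% did. From P15 to 8 weeks, 4 members fell, where 23.9% of genes did, and 1 of them, Igf2bp3, passed the 2-fold test, where 3.07% did. No tested member rose at an FDR under 0.05 in any of the 3 comparisons. The median log2FC of all genes was -0.01, 0.04 and 0.02 in these comparisons.

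**Figure D1:**
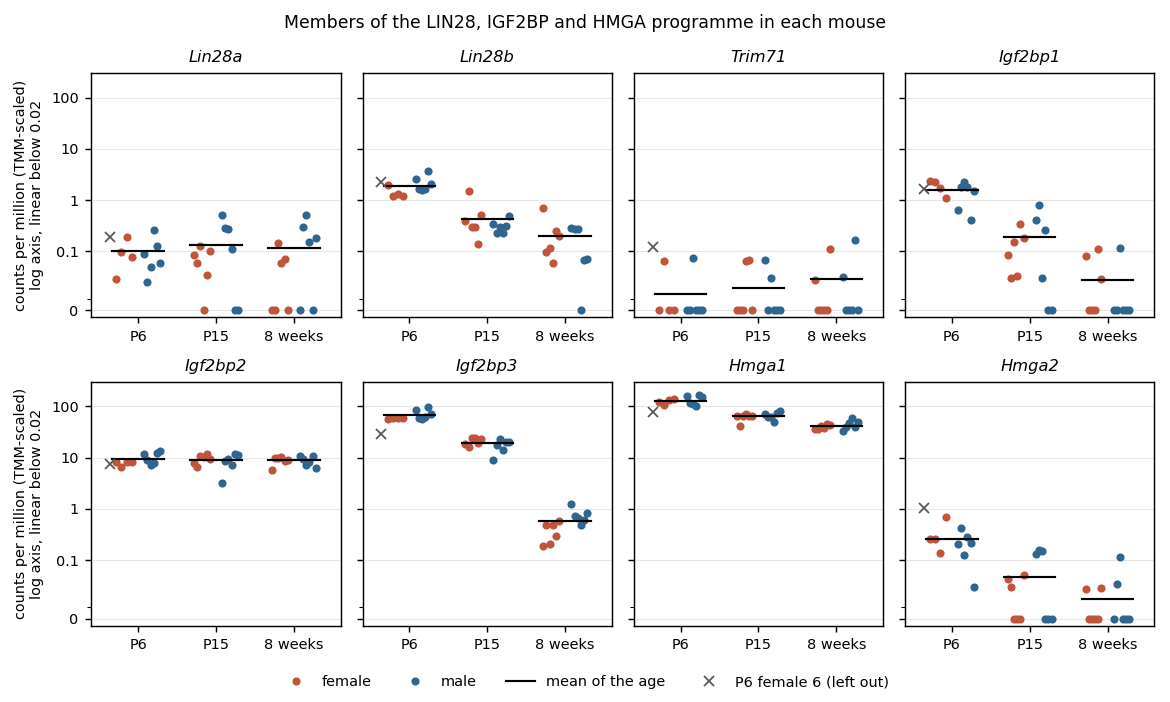
Level of each member in each mouse (CPM scaled by TMM, on a log axis that turns linear below 0.02) by age, with females in red, males in blue, the mean of each age as a bar and the omitted P6 female 6 as a cross. Igf2bp3 dropped from 57.2 to 97.7 CPM at P6 to 0.192 to 1.26 CPM at 8 weeks, whereas the age means of Igf2bp2 were 9.38, 9.04 and 8.85 CPM, with single mice from 3.27 to 13.4 CPM.

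Lin28b (chr10:45376620-45486395, minus strand) had 38 to 119 counts at P6 (median 65), 4 to 51 at P15 (median 10) and 0 to 26 at 8 weeks (median 5.5). In CPM, the lowest, median and highest mice were at 1.19, 1.67 and 3.77 at P6, 0.139, 0.309 and 1.53 at P15, and 0, 0.158 and 0.714 at 8 weeks. Every 8-week mouse lay below every P6 mouse, as held for 14.8% of all genes tested, while P15 overlapped with both. From P6 to P15 the log2FC was -2.11 (SE 0.366, FDR 9.87e-06, TREAT FDR 0.00654), and from P6 to 8 weeks it was -3.14 (SE 0.390, FDR 1.60e-08, TREAT FDR 3.23e-06). Since Lin28b met the filter through P6, these values and the lack of overlap between P6 and 8 weeks describe a fall built into its being tested. From P15 to 8 weeks the log2FC was -1.03 (SE 0.392, FDR 0.0313, TREAT FDR 1.0), and P15 female 2, with 51 counts, carried this call: without it the log2FC was -0.71 and the FDR 0.102, within a range of 0.00300 to 0.102 over all alternatives.

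Lin28a (chr4:134003330-134018841, minus strand) was scarce at all ages. It had 1 to 10 counts per mouse at P6 (median 3), 0 to 15 at P15 (median 2.5) and 0 to 13 at 8 weeks (median 2), summing to 36, 50 and 40 counts. The pooled level at P6 was 0.922 times that at 8 weeks, with a 95% counting interval of 0.571 to 1.48, so that no change was detectable at this depth. Trim71 (chr9:114507133-114564369, minus strand) had 0 to 3 counts per mouse at P6, 0 to 2 at P15 and 0 to 5 at 8 weeks, with 5, 7 and 11 counts in all, and its pooled ratio of P6 to 8 weeks was 0.466 (0.127 to 1.45). Both genes were thus at or near the floor in most mice of every age, and these intervals cover counting error only. Per exon length, Lin28b made up 88.7% ± 8.48 of the summed Lin28a and Lin28b level at P6 (SD, n = 10), with a lowest mouse of 73.8%. The share was 64.2% ± 29.1 at P15 (22.7% to 100%, n = 12) and 56.6% ± 40.7 at 8 weeks (0% to 100%, n = 12), where both genes lay near the floor and single counts move it.

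Igf2bp3 (chr6:49085223-49214957, minus strand) had 1837 to 3087 counts at P6 (median 2322), 270 to 930 at P15 (median 552) and 7 to 40 at 8 weeks (median 16.5). The lowest, median and highest mice were at 57.2, 59.3 and 97.7 CPM at P6, 9.11, 19.8 and 24.7 at P15, and 0.192, 0.533 and 1.26 at 8 weeks. The ages did not overlap at either step, as was true in this direction for 0.937% of genes. The log2FC was -1.76 from P6 to P15 (SE 0.147, FDR 6.58e-12, TREAT FDR 2.28e-05), -5.14 from P15 to 8 weeks (SE 0.179, FDR 1.52e-20, TREAT FDR 1.04e-18) and -6.91 over both steps (SE 0.191, FDR 1.08e-24, TREAT FDR 1.43e-23). The last value corresponds to a 120-fold lower level and was the 34th lowest log2FC of the 17612 genes. The fall was larger after P15 than before it: the difference between the steps, a contrast added after the data were seen, was -3.38 on the log2 scale (SE 0.257, FDR 1.39e-11), and 17.6% of genes had an FDR under 0.05 in that direction. Malsu1 overlaps Igf2bp3 on the opposite strand and had 174 to 399 counts per mouse, and the counting used the strand.

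Igf2bp1 (chr11:95957163-96005940, minus strand) had 13 to 92 counts at P6 (median 66.5), 0 to 25 at P15 (median 4) and 0 to 3 at 8 weeks (median 0). In CPM, the P6 mice ran from 0.412 through a median of 1.79 to 2.42, the P15 mice from 0 through 0.120 to 0.804, and the 8-week mice from 0 to 0.118. At 8 weeks 4 of 12 mice had a count and none exceeded the floor, with 10 counts in all against 579 at P6. The pooled level was 59.3 times higher at P6 than at 8 weeks (95% counting interval 32.0 to 124) and 8.25 times higher at P6 than at P15 (6.45 to 10.7). The fitted log2FC was -3.09 from P6 to P15 (SE 0.506, FDR 4.07e-06, TREAT FDR 0.00041). Igf2bp1 also met the filter through P6, so these values describe a fall built into its being tested. From P15 to 8 weeks the gene fell at an FDR of 0.00256 and missed the 2-fold test (TREAT FDR 0.0654), which it passed only without 8-week female 1 (TREAT FDR 0.0466, range over the alternatives 0.0466 to 1.0).

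Igf2bp2 (chr16:22059009-22163299, minus strand) did not follow the other family members. Its counts were 206 to 452 at P6 (median 313), 97 to 414 at P15 (median 290) and 174 to 347 at 8 weeks (median 289), and all ages overlapped. The mean level was 9.38 ± 2.39 CPM at P6, 9.04 ± 2.52 at P15 and 8.85 ± 1.69 at 8 weeks (SD, n = 10, 12 and 12). From P6 to 8 weeks the log2FC was -0.03 (SE 0.162, FDR 0.870), with a 95% interval of -0.36 to 0.30, or 0.778 to 1.23 on the fold scale. From P6 to P15 the interval was -0.33 to 0.33 and from P15 to 8 weeks -0.34 to 0.28, so that a 2-fold change in either direction lay outside all 3 intervals.

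With Igf2bp3 falling and Igf2bp2 holding, the make-up of the family turned over. With CPM divided by exon length in kilobases (RPKM), the summed level of the 3 genes was 9.59 ± 1.92 at P6, 3.59 ± 0.849 at P15 and 1.27 ± 0.237 at 8 weeks (SD). Igf2bp3 supplied 84.99% ± 1.63 of it at P6 (81.7 to 87.3% over mice), 65.6% ± 3.59 at P15 (58.7 to 69.8%) and 5.52% ± 2.72 at 8 weeks (1.88 to 10.7%). Igf2bp2 supplied 13.1% ± 1.65, 33.7% ± 3.70 and 94.2% ± 2.67. Thus Igf2bp3 was the main IGF2BP mRNA in every P6 and P15 mouse and Igf2bp2 in every 8-week mouse, while Igf2bp1 never exceeded 2.99%.

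**Figure D2:**
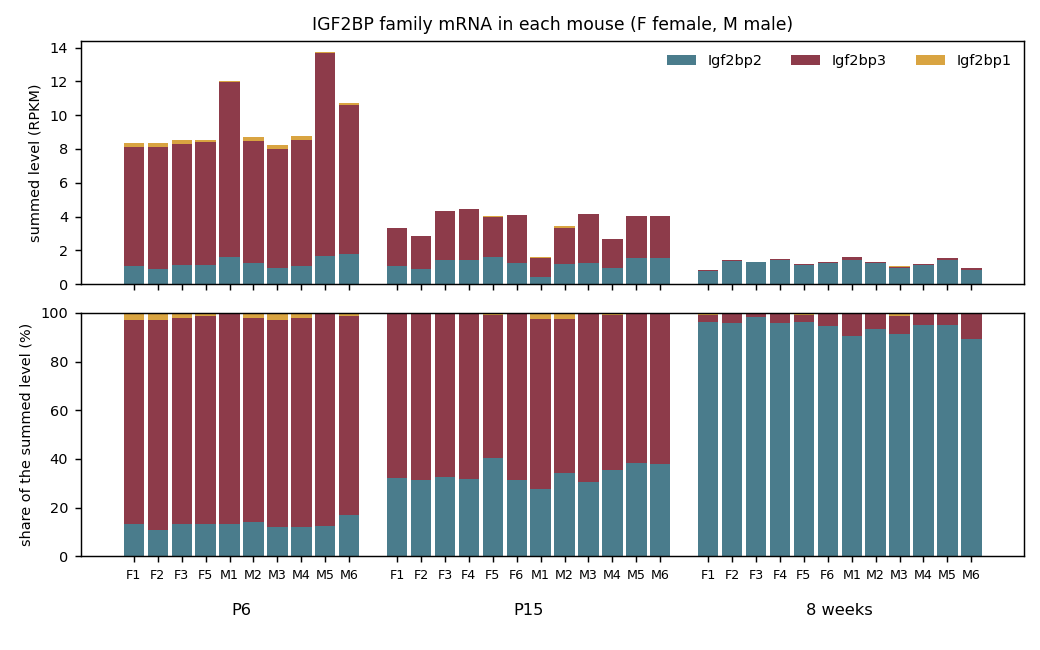
Summed level of the IGF2BP mRNAs in each mouse in RPKM (top) and as a share of that sum in percent (bottom), with bars stacked by gene and mice ordered by age and sex. Igf2bp3 made up 58.7% or more in every P6 and P15 mouse and at most 10.7% at 8 weeks.

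Hmga1 (chr17:27556497-27563674, plus strand) was the most abundant member per exon length at all ages, at 61.2 ± 11 RPKM at P6, 30.4 ± 5.04 at P15 and 19.9 ± 3.21 at 8 weeks (SD). Its counts ran from 3256 to 5547 at P6 (median 4671), 1328 to 2492 at P15 (median 1972) and 1076 to 1555 at 8 weeks (median 1235). P6 mice lay above all P15 mice, as held for 7.72% of genes tested, and above all 8-week mice, whereas the CPM of P15 and 8-week mice overlapped. The log2FC was -1.002 from P6 to P15 (SE 0.104, FDR 8.06e-10), which does not pass a 2-fold threshold (TREAT FDR 1.0), -0.61 from P15 to 8 weeks (SE 0.0990, FDR 1.03e-05) and -1.61 over both (SE 0.105, FDR 6.70e-15, TREAT FDR 1.34e-06). The steps differed by 0.39 on the log2 scale, with an FDR of 0.0816. Hmga1b, a copy of Hmga1 on chromosome 11 with which reads may be shared, had 1.82 ± 0.394, 0.690 ± 0.226 and 0.421 ± 0.212 CPM, and its log2FC from P6 to 8 weeks was -2.09 (SE 0.233, FDR 1.75e-09). It met the filter through P6 and P15, with 10 and 11 mice at 0.5 CPM or more against 3 at 8 weeks. The fall of this copy was thus built into its being tested. AI413582 and Gm49774 lie opposite to Hmga1, with 504 to 1080 and 19 to 159 counts.

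Hmga2 (chr10:120361275-120476469, minus strand) had 1 to 27 counts per mouse at P6 (median 7.5), 0 to 5 at P15 (median 0.5) and 0 to 3 at 8 weeks (median 0). These sum to 97, 18 and 6 counts, and at 8 weeks no mouse exceeded the floor. The pooled level at P6 was 5.53 times that at P15 (95% counting interval 3.32 to 9.72) and 16.6 times that at 8 weeks (7.34 to 46.3). Of the 6 counts at 8 weeks, 3 came from 8-week male 3, so that single libraries move the last ratio. When the filter on low counts was dropped, the log2FC was -2.63 from P6 to P15 (edgeR FDR 0.00112, TREAT FDR 0.0336) and -3.81 from P6 to 8 weeks (FDR 1.69e-05, TREAT FDR 0.00034), with -1.19 from P15 to 8 weeks (FDR 0.301). Even at P6 the gene made up 0.0666% ± 0.0458 of the summed Hmga1 and Hmga2 level per exon length. An antisense gene, 1700006J14Rik, lies opposite to it with 5 to 47 counts per mouse.

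**Figure D3:**
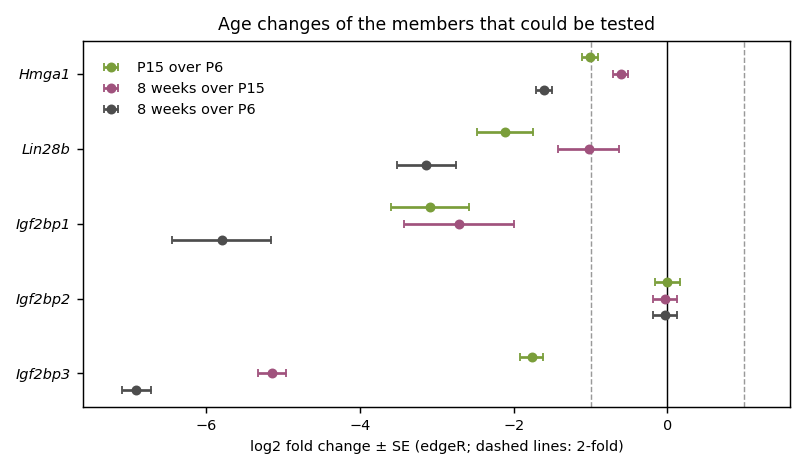
Log2 fold changes between ages of the 5 members that passed the filter, as the edgeR estimate with its SE, with dashed lines at a 2-fold change. Hmga1, Lin28b and Igf2bp3 each lay below 0 in all 3 comparisons, Igf2bp1 did so with the widest errors, and Igf2bp2 sat at 0.

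Ordered by mean RPKM at P6, the members ran from Hmga1 (61.2) over Igf2bp3 (8.16), Igf2bp2 (1.27), Lin28b (0.211), Igf2bp1 (0.165), Hmga2 (0.0391) and Lin28a (0.0252) to Trim71 (0.00149). Lin28b (0.131 to 0.416) overlapped with Igf2bp1 (0.0425 to 0.250), Hmga2 (0.00438 to 0.103) with both Igf2bp1 and Lin28a (0.00635 to 0.0650), and Lin28a with Trim71 (0 to 0.007985). At 8 weeks the order was Hmga1 (19.9), Igf2bp2 (1.195), Igf2bp3 (0.0699), Lin28a (0.0297), Lin28b (0.0222), Trim71 (0.00307), Igf2bp1 (0.00291) and Hmga2 (0.00255), and neighbours in this order overlapped from Igf2bp3 downwards.

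Females and males were compared within each age. No member was called at P6, P15 or 8 weeks at an FDR under 0.05, as 0.0511%, 0.0681% and 0.114% of all genes were, and at an unadjusted p under 0.05 only Igf2bp3 at 8 weeks was, where 2.94% of genes were. There, males had 13 to 40 counts (0.767 ± 0.268 CPM, SD, n = 6) and females 7 to 20 counts (0.373 ± 0.164 CPM, n = 6), with overlapping values. The log2FC of male over female was 1.05 (SE 0.279), with an unadjusted p of 0.000689 in the edgeR fit and an FDR of 0.229. At P15 the same contrast was -0.25 (SE 0.197) and at P6 0.30 (SE 0.219). The change from P6 to 8 weeks did not differ detectably between the sexes for any tested member, the lowest FDR being 0.858. In the same edgeR test 0.0% of all genes were called. At an unadjusted p under 0.05 there was 1 of the 5 tested members, Igf2bp3 (difference of male and female log2FC 0.75, SE 0.351, unadjusted p of 0.0403 in the edgeR fit), and 5.1% of all genes.

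Mice of one age differed in their RNA from other cells, so the tested members were set against the marker lists within each age. Of 45 relations of a member with the microglial, progenitor or proliferation list (mean log2 CPM), 13 passed Benjamini-Hochberg adjustment by Pearson's r (two-sided permutation test, 100000 permutations) and 4 by Spearman's rho. With library sizes without TMM scaling, 8 passed by Pearson's r, and the 5 that lost their call were Lin28b with the microglial list at P6 (adjusted permutation p = 0.0975), Igf2bp3 with it at P15 (adjusted permutation p = 0.124), and Hmga1 with the microglial list at P6 and the progenitor list at P6 and P15 (adjusted permutation p = 0.0844, 0.0844 and 0.209). The P6 mice gave 10 of the 13, the P15 mice 3 and the 8-week mice 0, and 0 of the 15 relations with the proliferation list passed. The proliferation mean varied little within ages (SD 0.11, 0.20 and 0.21 log2 CPM, against 0.69, 0.94 and 0.48 for the progenitor list). At 8 weeks Igf2bp1 and Lin28b had median counts of 0 and 5.5. The SD of the microglial mean was 0.14 there, against 0.32 at P6. Neither tally of 0 therefore shows that a relation is absent. In the 10 P6 mice, Igf2bp2 rose with the microglial list (r = 0.94, adjusted permutation p = 0.0063; rho = 0.95, adjusted permutation p = 0.0045), as did Igf2bp3 (r = 0.91, adjusted permutation p = 0.00837; rho = 0.82, adjusted permutation p = 0.0512) and Hmga1 (r = 0.86, adjusted permutation p = 0.00977; rho = 0.84, adjusted permutation p = 0.0463). Lin28b had r = 0.78 (adjusted permutation p = 0.0283; rho = 0.68, adjusted permutation p = 0.141). Igf2bp1 ran the other way, with r = -0.87 (adjusted permutation p = 0.00977; rho = -0.85, adjusted permutation p = 0.0463). When the 2 mice farthest from the median of the list, P6 male 5 and P6 male 1, were left out, r was 0.93 for Igf2bp2, 0.80 for Igf2bp3, 0.72 for Hmga1, 0.35 for Lin28b and -0.61 for Igf2bp1, so that the relation of Lin28b rests on those mice.

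Against the progenitor list the signs were the opposite. Relations with the lists of the other cell types were not computed, so those below are not shown to be particular to progenitors. At P6, Igf2bp1 had r = 0.83 (adjusted permutation p = 0.0307; rho = 0.53, adjusted permutation p = 0.263), which fell to 0.13 without P6 male 5 and P6 male 1 and thus rests on them. The other 4 tested members had negative values, namely Igf2bp3 with r = -0.94, Lin28b with -0.89, Igf2bp2 with -0.88 and Hmga1 with -0.81, at adjusted permutation p-values of 0.00837, 0.00837, 0.0134 and 0.0186. These became -0.74, -0.58, -0.85 and -0.58 without the same mice. By rank none of the 4 passed, with rho of -0.60, -0.79, -0.77 and -0.73 and adjusted permutation p-values of 0.211, 0.0564, 0.0726 and 0.0995. P6 male 5 had the lowest progenitor mean of the age (4.54 log2 CPM) and the lowest Igf2bp1 (13 counts, 0.412 CPM), together with the highest Igf2bp3 (97.7 CPM), Hmga1 (164 CPM) and Lin28b (3.77 CPM) of the 10 mice. It was also lowest in the radial glia (5.03), astrocyte (5.63), oligodendrocyte lineage (4.46) and fibroblast (3.38) means. In the microglial (10.5), monocyte and macrophage (5.18), erythroid (8.13) and proliferation (6.67) means it was highest. At P15, 3 relations passed by Pearson's r and 1 by Spearman's rho. The latter was that of Igf2bp2 with the progenitor list (rho = -0.78, adjusted permutation p = 0.0463; r = -0.62, adjusted permutation p = 0.0871). Igf2bp2 rose with the microglial list (r = 0.81, 0.54 without the 2 farthest mice, adjusted permutation p of r = 0.00837; rho = 0.75, adjusted permutation p = 0.055), as did Igf2bp3 (r = 0.69, adjusted permutation p of r = 0.0434; rho = 0.59, adjusted permutation p = 0.181), whose r was 0.25 without the 2 farthest mice, P15 male 1 and P15 female 2, and thus rests on them. Hmga1 fell as the progenitor list rose (r = -0.69, -0.47 without the 2 farthest mice, adjusted permutation p of r = 0.0434; rho = -0.62, adjusted permutation p = 0.141). The values are shares of 1 library total, so lists and members are not free of each other.

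**Figure D4:**
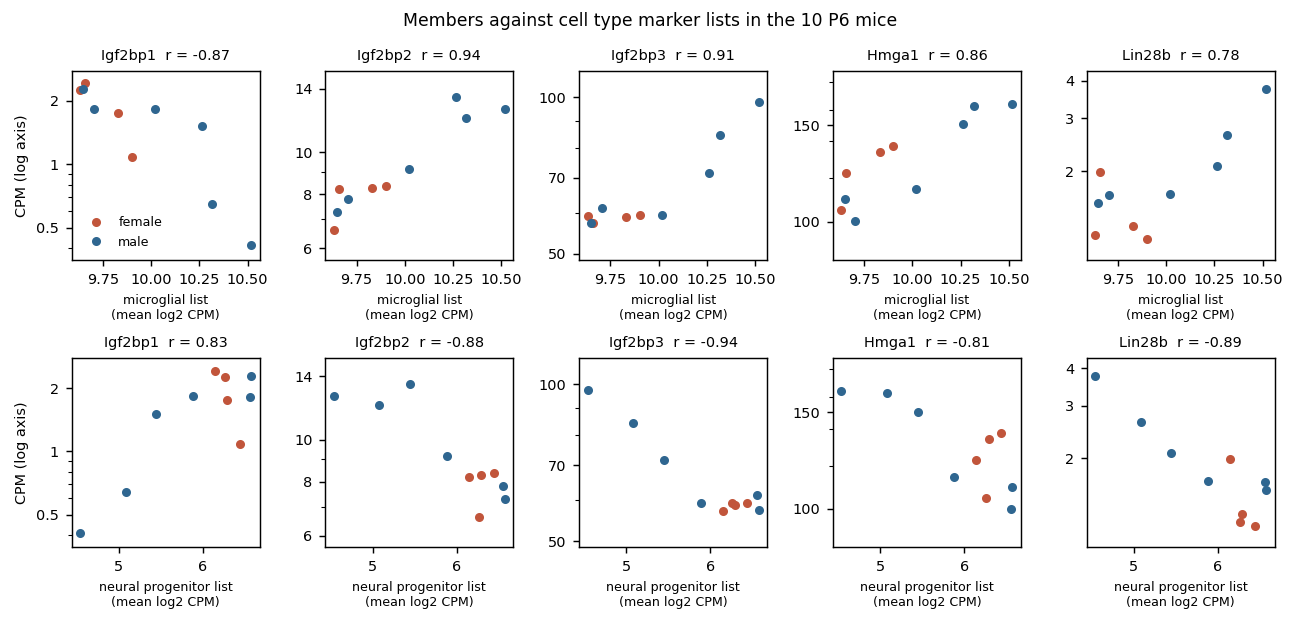
CPM of the 5 tested members (log axis) in the 10 P6 mice against the mean log2 CPM of the microglial list (top) and of the neural progenitor list (bottom), with females in red and males in blue. Igf2bp1 fell as the microglial list rose (r = -0.87) while Igf2bp2, Igf2bp3, Hmga1 and Lin28b rose with it (r = 0.78 to 0.94).

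The genes with the most similar pattern over the 34 mice were found by Pearson's r of log2 CPM, given as a description. For Igf2bp3 these were Pif1 (r = 0.97), Cdc25a (0.96) and Cdca2 (0.96), and for Lin28b Rad54l (0.89), Trim59 (0.89) and Cenpa (0.89). After the mean of each age was subtracted, the values fell to between 0.24 and 0.44 for Igf2bp3 and between 0.42 and 0.48 for Lin28b, so that most of this likeness lay in the age means. Igf2bp1 was closest to Acot1 (0.94), Grb10 (0.94) and Tshz2 (0.94), which kept 0.69 to 0.76 within ages. Among the genes closest to Hmga1 were Cfl1 (0.98) and AI506816 (0.98), which kept 0.88 and 0.83. For Igf2bp2 the closest were Evi2a (0.87), Sfmbt1 (0.86) and Nrp1 (0.86), at 0.87 to 0.90 within ages.

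Mature let-7 is not measured in these libraries, but 11 genes of its processing and control were. From P6 to 8 weeks, 7 fell and 2 rose at an FDR under 0.05, where 36.6% of all genes fell and 37.8% rose, and 1 fell past the 2-fold test, where 12.4% fell and 11.5% rose, with a list median log2FC of -0.57 against 0.04 for all genes. Msi1, an RNA-binding protein of neural stem cells that works with LIN28, was the one past 2-fold, from 59.7 ± 26.1 to 18.9 ± 7.06 CPM (log2FC -1.71, TREAT FDR 0.0149), and it is also expressed by neural progenitors, whose markers fell as given above. Of 14 let-7 loci and host transcripts matched, 2 passed the filter. Lncppara, the host of let-7b and let-7c-2, fell from 7.55 ± 3.80 to 1.41 ± 0.526 CPM (log2FC -2.44, TREAT FDR 8.53e-06). Mir99ahg, the host of let-7c-1, rose from 10.9 ± 2.54 to 29.2 ± 7.19 CPM (log2FC 1.47, TREAT FDR 0.00533). The rows of Mirlet7a-1, Mirlet7a-2, Mirlet7b, Mirlet7c-1, Mirlet7c-2, Mirlet7d, Mirlet7e, Mirlet7f-1, Mirlet7f-2, Mirlet7g, Mirlet7i and Mir98 did not pass.

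Other mRNAs known as let-7 targets gave calls in both directions. Of 31, 17 fell and 8 rose from P6 to 8 weeks at an FDR under 0.05, where 36.6% of all genes fell and 37.8% rose. Past 2-fold 5 fell and 3 rose, near the 12.4% and 11.5% of all genes, and the median log2FC was -0.60 against 0.04 for all genes. The largest falls were those of Mycn, a growth-promoting transcription factor (24.7 ± 12.9 to 0.529 ± 0.234 CPM, log2FC -5.55), Ccnd2, a D-type cyclin (377 ± 186 to 24.7 ± 6.29 CPM, log2FC -3.96), and Dna2, a replication nuclease (log2FC -2.33). Tgfbr1, the type I receptor for TGF-beta, rose from 400.2 ± 112.7 to 1700 ± 446 CPM (log2FC 2.19), Myc from 47.6 ± 12.2 to 139 ± 28.3 CPM and Arid3b from 21.1 ± 3.57 to 51.9 ± 5.53 CPM. The largest TREAT FDR of these 6 genes was 0.00516.

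Imprinted and fetal genes, of which Igf2 gave the IGF2BP family its name, had more falls than rises. Of 11 tested, 8 fell and 1 rose at an FDR under 0.05 (36.6% and 37.8% of all genes), and 6 fell and 0 rose past 2-fold (12.4% and 11.5% of all genes), with a median log2FC of -2.24, while Sall4 did not pass the filter. H19, an imprinted long non-coding RNA, went from 15.5 ± 3.14 CPM at P6 to 0.0415 ± 0.0417 at 8 weeks, which is below the floor. It met the filter through P6 and P15 (0 of 12 mice at 0.5 CPM or more at 8 weeks), so its fall was built into its being tested, and the other 10 genes had 7 falls, 5 of them past 2-fold. Sox11 went from 273 ± 124 to 6.78 ± 2.51 and Mest from 22.9 ± 7.53 to 1.16 ± 0.637. Sox11 is also 1 of the 9 progenitor markers. Among 10 mRNAs known to be bound by IGF2BP proteins, 2 fell past 2-fold (H19, with the same limit, and Igf2, from 5.62 ± 1.2 to 0.794 ± 0.282 CPM) and 1 rose (Myc), and the median log2FC was -0.04.

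The high mobility group family gives the setting of the HMGA genes. Of 8 tested, Hmga1 among them, 6 fell and 0 rose past 2-fold from P6 to 8 weeks, where 12.4% of all genes fell and 11.5% rose, with a median log2FC of -1.61, and Hmga2 and Hmgb4 did not pass the filter. Without Hmga1, 5 of 7 fell past 2-fold. Hmgb3 fell from 65.5 ± 23.7 to 2.7 ± 0.877 CPM (log2FC -4.64), Hmgn2 from 480 ± 54.5 to 89.1 ± 6.88 (log2FC -2.44) and Hmgb2 from 243 ± 24.4 to 48.7 ± 6.49 (log2FC -2.32), with a largest TREAT FDR of 4.00e-14. The 10 proliferation genes, which fell in every case, had a median log2FC of -5.24, with the largest fall in Ccnb1, a mitotic cyclin (62.6 ± 5.24 to 0.808 ± 0.381 CPM).

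**Figure D5:**
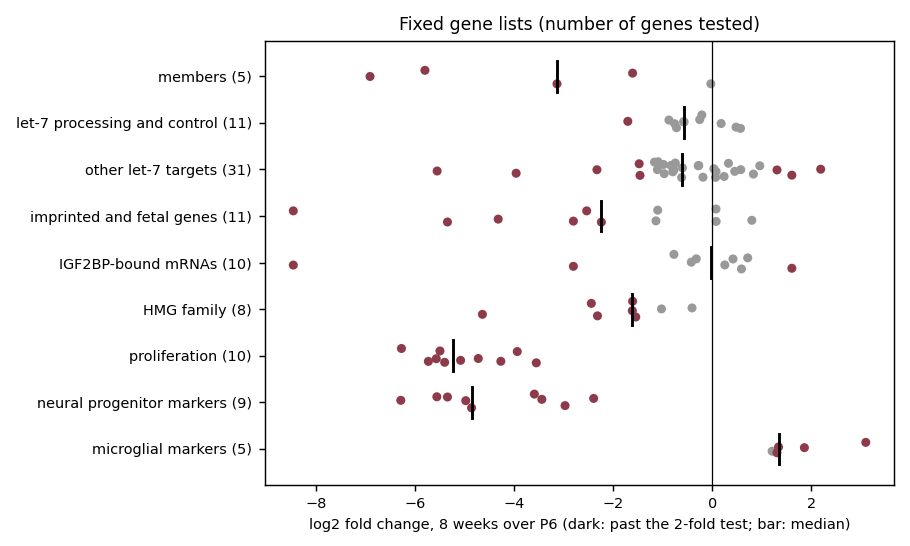
Log2 fold change from P6 to 8 weeks of each tested gene in the fixed lists, with dark points past the 2-fold TREAT test, grey points not past it and a bar at the list median. Let-7 targets lay on both sides of 0 (median -0.60), whereas all proliferation genes and progenitor markers lay below it.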

How the data were processed

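Per the labels and the study's methods, the authors made 1 directional library per mouse (35 mice), aligned paired-end reads to GRCm38/mm10 with STAR and counted fragments by gene and strand with featureCounts. The deposited values are raw counts, unfiltered and not normalised. The annotation release is not given in the sources used here. Names, lengths and 3′ UTRs came from GENCODE M21, in which 55141 of 55401 identifiers were found.

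The filter kept genes that reached 0.5 CPM in 5 or more mice. The main test was edgeR 4.0.16 with TMM scaling and a robust glmQLFit of 1 mean per age and sex group (6 groups, 34 mice). Age contrasts averaged the sexes. Changes were tested with glmQLFTest and, against 2-fold, with glmTreat, and p-values were adjusted by Benjamini-Hochberg over 17612 genes (threshold 0.05). The code was tested on simulated data. Alternatives were limma-voom (limma 3.58.1), DESeq2 1.42.0, other scalings and filters, all 35 mice, a replicate block and 6 single mice left out. Log2 CPM used a prior count of 2. The 95% intervals of pooled ratios are exact binomial ones, and those of log2FC use the t distribution.

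The members and lists were chosen with earlier results of these data known. Every member is named. From each list at most 3 rises and 3 falls past 2-fold are named, those with the largest log2FC from P6 to 8 weeks, and for each tested member its 3 most correlated genes. One such gene and 1 microglial marker of the planned list are not reported here, and the list was computed without that marker. Libraries of a group were not copies of each other (lowest chi-square per gene 12.8 over 85 pairs), and each mouse is a separate animal.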

Additional observations from a re-analysis of the deposited data

Results flagged for a closer look

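P6 female 6, left out by the study, stood outside the range of the other 10 P6 mice in 4 members, with CPM scaled here over all 35 mice, so that the values of the other mice differ slightly from those over 34. It had 29.4 CPM of Igf2bp3 (1221 counts) against 57.7 to 96.7 in the others, and 77.4 CPM of Hmga1 (3216 counts) against 101 to 163. Hmga2 was higher, at 1.03 CPM (43 counts) against 0.0301 to 0.712, and so was Trim71, at 0.120 CPM (5 counts) against 0 to 0.0749. The same library had 3030.3 CPM of the 5 microglial markers and 2315 CPM of the progenitor markers, below and above the range of the other P6 mice. It lay above that range in oligodendrocyte lineage (2242 CPM), radial glia (1803), astrocyte (1619), neuron (1528) and fibroblast (538) markers as well. In proliferation genes (574 CPM) and in monocyte and macrophage markers (428 CPM) it lay below.

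Within groups of 4 to 6 mice of 1 age and sex, 39 sets of values were tested by Dixon's ratio for a mouse far from the others, of which chance flags about 1 in 20, and 7 values in 6 mice stood apart. Lin28b was high in 8-week female 1 (0.714 CPM, 26 counts), P15 female 2 (1.53 CPM, 51 counts) and P6 female 1 (1.99 CPM, 69 counts). Igf2bp2 was low in P6 female 2 (6.63 CPM) and Hmga1 was low in P15 female 2 (42.0 CPM). Trim71 was high in 8-week female 6 (0.114 CPM, 4 counts) and 8-week male 5 (0.171 CPM, 5 counts), where counting error is large.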

How the results depend on the processing

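Of 78 alternative values for the numbers of members called and of relations passed, 72 stayed within 1.5 times the main number. Requiring at least 10 counts in every mouse left 2 members (Hmga1 and Igf2bp2) and gave 0, 1 and 0 calls for P15 against P6, 8 weeks against P6 and 8 weeks against P15, because the genes that fell to low counts were no longer tested. For 8 weeks against P15, dropping the fold threshold gave 4 calls. Each of 6 mice was left out in turn: P6 females 1, 2, 3 and 5 (the group with under 6 mice), and P15 female 2 and 8-week female 1, chosen after the data were seen. These 6 fits gave 1 to 2 calls there, with 2 without 8-week female 1. Of 45 within-age relations to marker lists, 13 passed in the main setting and 8 with library sizes without TMM. In the fit of P15 and 8 weeks alone, Lin28b and Igf2bp1 did not reach the filter and gave no value. Of 229 alternative log2FC of single members, 219 kept direction and call, Lin28b at 8 weeks against P15 lost its call without P15 female 2, and 9 changed sign, all of Igf2bp2 and none significant. For P15 against P6 these were 0.0015 with DESeq2 size factors, 0.0015 with DESeq2, 0.0012 with no filter, 0.0288 with these ages alone, 0.0071 without P6 female 1 and 0.0186 without P15 female 2. For 8 weeks against P15, limma-voom gave 0.0136. Over the same 6 fits, the Igf2bp2 log2FC ran from -0.0617 to 0.0186 for P15 against P6, from -0.107 to 0.0183 for 8 weeks against P6 and from -0.0862 to 0.0191 for 8 weeks against P15.

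The replicate numbers did not pair the mice: over 80 same-numbered pairs the median correlation of deviations from the group means was 0.03 (-0.54 to 0.69), and 2 of 34 mice correlated best with their own number. With the replicate number as a block, the calls stayed at 3, 4 and 1 for the age comparisons and at 0 for sex and for sex by age. At this depth, Lin28a, Trim71 and adult Igf2bp1 and Hmga2 lay at or near 3 counts per library.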
